A study of Mus musculus with 85 samples.

Results

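The family of miR-148a, miR-148b and miR-152 was followed through 85 mouse hearts as its 3 mature 3p products, mmu-miR-148a-3p, mmu-miR-148b-3p and mmu-miR-152-3p. These 3 of the 1977 mature miRNAs listed, of which 548 had a count in any heart, were selected on earlier results of the same libraries: their shares of the counts, their variation between hearts and the miRNAs that varied with them. Shares, levels, ratios, variation and the miRNAs that varied with the members are therefore given as a description, with no p-value. Counts of calls stand beside the percentage called among all miRNAs or pairs, and nothing is read from them. A p-value is given for the relation of levels to sequencing depth alone.

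Each library came from the heart of 1 female HMDP mouse, that is, a mouse from the panel of inbred strains called the Hybrid Mouse Diversity Panel. All mice were 16 weeks old, and 8 weeks on chow had been followed by 8 weeks on the HF/HS diet, which is rich in fat and sucrose, so the libraries form a single group. The strain of each mouse is not analysed here. Libraries carry a library number from 1 to 85, used below as a name (library S9), and an animal number.

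MiRNAs are short RNAs that guide repressor complexes to messenger RNAs, mainly by pairing of the seed, the bases near the 5′ end. MiRNAs with the same seed can bind many of the same messages, so the family as a whole and the share of each member both describe how much of that seed a tissue holds. MiR-148a is known best from liver, where it represses the LDL receptor and the cholesterol exporter ABCA1, and all members of the family have been linked to repression of DNA methyltransferase 1. MiR-152 and miR-148b lie in genes for zeta subunits of the coatomer, the coat of vesicles that travel from the Golgi to the endoplasmic reticulum.

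The mature sequences below are shown because the members share a seed (bases 2 to 8 from the 5′ end, in capitals) and are told apart in the counts by a few bases after it. All 3 were matched by name to the RefSeq set on GRCm38.p6, the sequence of the mm10 build used for the counts.
mmu-miR-148a-3p: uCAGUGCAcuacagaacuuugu
mmu-miR-148b-3p: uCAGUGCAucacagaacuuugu
mmu-miR-152-3p: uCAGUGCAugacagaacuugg

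Of 1679 mouse mature miRNAs in that set, only these 3 have this seed. Positions are counted from 1 at the 5′ end, with the base of the member named first. MiR-148a-3p differs from miR-148b-3p by C9U and U10C, and from miR-152-3p by C9U, U10G and U20G over the 21 bases they can be compared on. MiR-148b-3p differs from miR-152-3p by C10G and U20G. Reads of the members are thus set apart by 2 or 3 bases, and a read with errors at these positions could be counted for another member.

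The 3 loci lie on different chromosomes. The mature miR-148a-3p lies at chr6:51269829-51269850 on the minus strand, in the hairpin Mir148a (ENSMUSG00000065505.1), which GENCODE M21 places between genes, 13622 bases from the nearest other gene, the lincRNA Gm32479. MiR-148b-3p lies at chr15:103285185-103285206 on the plus strand, where Mir148b (ENSMUSG00000065560.1) is within an intron of Copz1 on the same strand. MiR-152-3p lies at chr11:96850439-96850459 on the plus strand, where Mir152 (ENSMUSG00000065515.1) is within an intron of Copz2 on the same strand. No exon of another gene overlaps any of the 3 hairpins.

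Totals ranged from 1457 to 30202 counts, with a median of 12248. In the heart libraries the cardiomyocyte miRNAs miR-1a-3p, miR-133a-3p, miR-208a-3p and miR-499-5p held between 17.6% and 29.2% of the counts. Of the 2 neuronal miRNAs examined, miR-124-3p was at 0 in all libraries. The other, miR-9-5p, had counts, at most 0.0791% of a library (in S49-59). The 3 miRNAs with the most counts, miR-1b-5p, miR-1a-3p and miR-126a-3p, had 251291, 202280 and 65803. MiR-1b-5p lies on the strand opposite to a locus of miR-1a-3p, so its counts are uncertain where strand was not used. Libraries differ by runs of library number in most of the 51 miRNAs that passed the filter on low counts, so values are given for S1-10 (n = 10), S11-21 (n = 11), S22-48 (n = 27), S49-59 (n = 11) and S60-85 (n = 26). S11-21 mixes libraries of both kinds and enters no comparison or correlation. The borders of these runs were drawn where earlier results of the same counts showed the libraries to change, so a difference between runs is not independent evidence of a division. Animal numbers rise with library number, from 115 to 302 in S1-10 and from 1202 to 1489 in S60-85, so a library run and a cohort of animals cannot be told apart. Library S14, with the total of 1457, lies in S11-21, and library S9 stands apart in miR-148a-3p within S1-10.

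MiR-148a-3p was the member with the most counts, 9896 over the 85 hearts, rank 21 of the 548 miRNAs with counts. MiR-152-3p had 2876 counts (rank 42) and miR-148b-3p 880 (rank 67). The members differ in length by 1 base, so their counts were set side by side without scaling for length. Whether the members' sequences are captured equally well in a library was not tested, so shares are of counts. Of all counts, miR-148a-3p, miR-152-3p and miR-148b-3p held 0.866% (95% Wilson interval, 0.8496% to 0.884%), 0.252% (0.243% to 0.261%) and 0.0770% (0.0721% to 0.0823%). The intervals cover counting error only. In a single library miR-148a-3p had between 8 and 317 counts (median 112), miR-152-3p between 1 and 64 (median 32) and miR-148b-3p between 1 and 28 (median 10). No library was without a count of any member, but miR-148b-3p was above 3 counts in 78 of 85 libraries, so its values in single hearts are coarse.

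The family was made almost wholly of 3p products. The 5p arms had 3 counts for miR-148a, 15 for miR-148b and 12 for miR-152, at most 2 in a library. The 3p arm thus held 99.97% (95% Wilson interval, 99.91% to 99.99%), 98.3% (97.3% to 98.98%) and 99.6% (99.3% to 99.8%) of the counts of its hairpin. In a library with the median 3p count and no 5p count, 3 counts allow a 5p share of up to 2.68% for miR-148a and 30% for miR-148b, so arm shares of single hearts were not resolved for miR-148b.

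Within the family, miR-148a-3p held 72.5% of the 13652 counts (95% Wilson interval, 71.7% to 73.2%), miR-152-3p 21.1% (20.4% to 21.8%) and miR-148b-3p 6.45% (6.05% to 6.87%). Over single libraries the share of miR-148a-3p ran from 32.7% to 87.0%, with a median of 71.8%. MiR-148a-3p had more counts than miR-148b-3p in 85 of 85 libraries and more than miR-152-3p in 84, the exception being library S16 with 18 against 29 counts. MiR-148b-3p never had more counts than miR-152-3p.

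**Figure D1:**
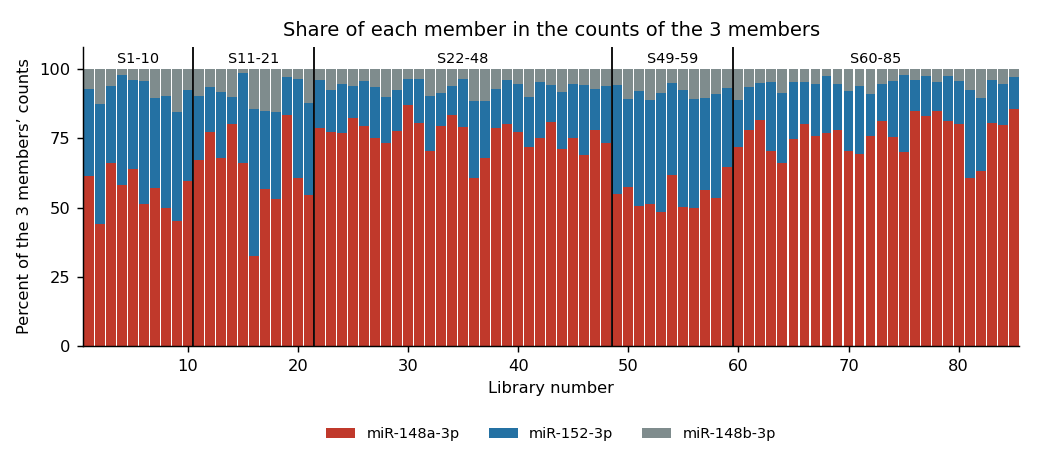
Share of each member in the counts of the 3 members (percent, vertical axis) in each of 85 libraries by library number (horizontal axis), with lines at the borders of runs. MiR-148a-3p holds most of the bar in S22-48 and S60-85, where its pooled share is 76.5% in both, and less in S1-10 (56.98%) and S49-59 (54.8%).

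The mix of members differed between runs. MiR-148a-3p held 56.98% of the family's counts in S1-10, 66.8% in S11-21, 76.5% in S22-48, 54.8% in S49-59 and 76.5% in S60-85. MiR-152-3p held 35.4%, 25.1%, 16.9%, 36.6% and 18.1% in the same order. MiR-148b-3p held 7.66%, 8.01%, 6.62%, 8.64% and 5.41%, a narrower range in percentage points. In proportion to its size this range was wider than that of miR-148a-3p and narrower than that of miR-152-3p.

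Levels are given as log2 of the TMM-normalized counts as CPM (the count scaled to a common library size; log2 CPM), in which 1 unit is a 2-fold difference. In S1-10, miR-148a-3p ran from 11.03 in library S9 to 12.65, with a median of 12.27. In S11-21 it ran from 10.99 to 14.07, with a median of 12.43. In S22-48 it ran from 12.25 in library S36 to 14.18 in library S30, with a median of 13.55. The level in S11-21 thus spans nearly the range of all 85 hearts. In S49-59 miR-148a-3p ran from 11.52 to 12.21, with a median of 11.87. In S60-85 it ran from 12.62 in library S81 to 14.34 in library S85, the highest of all, with a median of 13.38. All libraries of S49-59 lie below all of S22-48 and S60-85. S1-10 overlaps library S36, the lowest of S22-48, and its highest level lies just above that of library S81, the lowest of S60-85. S22-48 and S60-85 overlap almost completely.

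MiR-152-3p did not share this pattern. Its median was 11.70 in S1-10 (10.84 to 12.10), 11.44 in S11-21 (9.60 to 11.73), 11.33 in S22-48 (10.48 to 11.87), 11.35 in S49-59 (11.05 to 11.79) and 11.43 in S60-85 (10.94 to 11.95). The ranges of all runs overlap. MiR-148b-3p had medians of 9.55 (8.39 to 10.46), 9.60 (8.11 to 10.29), 10.08 (9.08 to 10.62), 9.56 (8.98 to 9.75) and 9.86 (8.83 to 10.45), again with overlapping ranges.

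**Figure D2:**
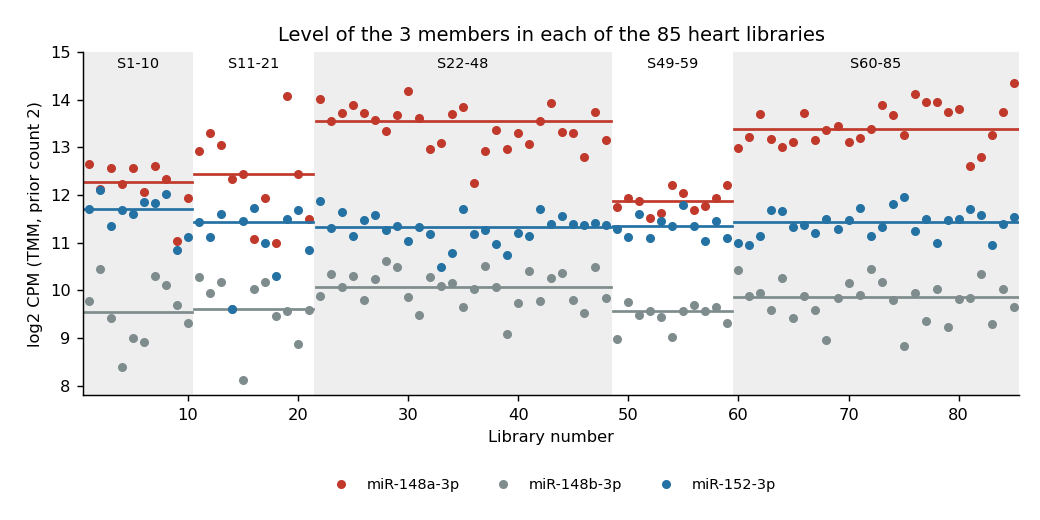
Level of each member (log2 CPM, vertical axis) against library number (horizontal axis) in 85 hearts, with shaded runs and a line at each run's median. MiR-148a-3p drops from a median of 13.55 in S22-48 to 11.87 in S49-59 and returns to 13.38 in S60-85, while the medians of miR-152-3p stay between 11.33 and 11.70.

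Between runs, levels were set side by side in a fit across the 51 miRNAs that passed the filter on low counts, with edgeR's quasi-likelihood fit, and a call is an adjusted p (Benjamini-Hochberg) under 0.05. The run borders were drawn on these same counts. MiR-148b-3p did not pass the filter, so its values come from the fit over all 548 miRNAs. In S49-59, miR-148a-3p was lower than in S22-48 and S60-85 by a log2 fold change of -1.64 ± 0.18 (SE), which is 3.13-fold. Under the other settings its value ran from -1.32 (CPM without TMM) to -1.78 (the fit over all 548). In that last fit miR-148b-3p was lower by a log2 fold change of -0.71 ± 0.18, and miR-152-3p had -0.18. For miR-152-3p the fold change was -0.03 ± 0.11 (95% interval -0.24 to 0.18), 0.10 without library S9 and 0.30 with CPM without TMM. Calls were common in this contrast, at 88.2% of the 51 filtered miRNAs and 17% of the 548. MiR-148a-3p was among the former and miR-148b-3p among the latter, while miR-152-3p was called only with CPM without TMM among the settings run. A lower fold change than that of miR-148a-3p was found in 5 of the 51.

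S1-10 was set against S22-48, whose libraries also serve in the contrast of S49-59, so these contrasts share them. MiR-148a-3p was lower by a log2 fold change of -1.23 ± 0.20 (SE), and by -1.04 without library S9. It was lower by -1.03 with CPM without TMM and by -1.44 in the fit over all 548 miRNAs. In that last fit miR-148b-3p was lower by -0.73 ± 0.21. The fold change of miR-152-3p was 0.35 ± 0.12, or 0.50 without library S9, but 0.12 in the fit over all 548 miRNAs, where it was not called. MiR-148a-3p and miR-152-3p were among the 88.2% of the 51 miRNAs called in this contrast, and miR-148b-3p among the 15% of the 548.

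Between S60-85 and S22-48 none of the members was called. The log2 fold change was 0.02 for miR-148a-3p (95% interval -0.24 to 0.28), and turned to -0.06 when TMM was left out. For the other members the values were 0.11 for miR-152-3p (95% interval -0.07 to 0.29) and -0.20 for miR-148b-3p (95% interval -0.48 to 0.08). In this contrast 17.6% of the 51 miRNAs were called. Of the 548, 0% were called by edgeR without the filter, where 52 had an unadjusted p under 0.05, and DESeq2's Wald test called 10 of the 51.

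Markers of cell types moved between the same runs, and those of cardiomyocytes and of smooth muscle moved in both directions. Of the 3 leukocyte miRNAs (miR-142a-3p, miR-223-3p and miR-150-5p), all with counts, the summed share had a median of 0.492% in S1-10 (0.339% to 0.671%) and 0.566% in S49-59 (0.407% to 0.981%), against 1.71% in S22-48 (0.934% to 2.99%) and 1.72% in S60-85 (0.692% to 3.92%). Only 1 of the 3, miR-142a-3p, was in the fit, with log2 fold changes of -2.88 in S49-59 and -3.50 in S1-10. The sum does not show whether miR-223-3p and miR-150-5p moved with it. The endothelial pair miR-126a-3p and miR-126a-5p had medians of 5.88% and 5.89% in S1-10 and S49-59, against 6.54% and 6.57% in S22-48 and S60-85. Cardiomyocyte miRNAs had a summed median of 21.3% in S1-10, 21.6% in S49-59, 22.2% in S22-48 and 24.1% in S60-85. In both S49-59 and S1-10, 3 of the 4 of them in the fit were called lower and 1 higher. Of all 51 filtered miRNAs, 88.2% were called in each contrast, 24 higher and 21 lower. In S49-59 the log2 fold change was -2.49 for miR-208a-3p, -0.77 for miR-1a-3p and -0.58 for miR-499-5p, against 0.98 for miR-133a-3p.

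Smooth muscle miRNAs had medians of 3.55%, 4.34% and 4.07% in S1-10, S49-59 and S22-48, sums over opposite moves: the fold change in S49-59 was -0.36 for miR-143-3p and 1.34 for miR-145a-5p, and in S1-10 it was -0.51 and 1.29. In the same order the medians were 1.23%, 1.09% and 0.814% for fibroblast miRNAs, 0.273%, 0.440% and 0.354% for erythroid and 0.154%, 0.110% and 0.0756% for hepatocyte miRNAs. The erythroid miR-451a was among the 88.2% called in each contrast, lower by -0.71 in S49-59 and by -0.97 in S1-10. It was the only erythroid miRNA in the fit, and the erythroid sum was higher in S49-59 (0.440%) than in S22-48 (0.354%). The part of these cell types in the level of miR-148a-3p was not tested. In whole hearts, fewer cells of a type and less of an RNA per cell cannot be told apart.

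The ratio of 2 members within a library needs no normalization between libraries, so it was compared with 0.5 added to each count. In S49-59 the log2 ratio of miR-148a-3p over miR-152-3p ran from 0.17 to 1.17, with a median of 0.48. In S1-10 it ran from 0.03 to 1.24, with a median of 0.68. In S22-48 it ran from 1.12 to 3.20 (median 2.16), and in S60-85 from 0.93 to 3.03 (median 2.25). Typical hearts thus held 4.47 and 4.77 counts of miR-148a-3p for each count of miR-152-3p in the latter runs, and 1.39 in S49-59. Of the 11 libraries of S49-59, 10 lie below the lowest of the 53 libraries of S22-48 and S60-85, and 9 of the 10 of S1-10 lie below the lowest of S22-48.

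**Figure D3:**
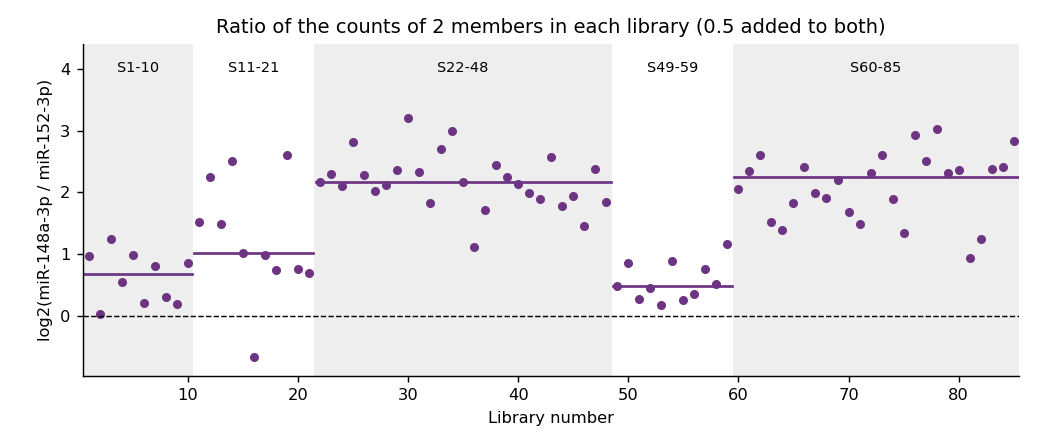
Log2 ratio of the counts of miR-148a-3p to miR-152-3p (vertical axis) against library number (horizontal axis) in 85 hearts, with shaded runs and a line at each run's median. The dashed line marks equal counts, and the median is 0.48 in S49-59 between 2.16 in S22-48 and 2.25 in S60-85.

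The mean ratio was 0.56 ± 0.31 (SD, n = 11) in S49-59 against 2.14 ± 0.50 (SD, n = 53), a difference of -1.58 (SE 0.12), or 2.99-fold. S1-10 differed from S22-48 by -1.57 (SE 0.16). S60-85 and S22-48 differed by -0.08 (SE 0.14), less than 1 SE.

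The ratio of miR-148a-3p over miR-148b-3p was lower by -1.05 in S49-59 (SE 0.16) and by -0.64 in S1-10 (SE 0.31), the latter -0.49 without library S9. MiR-148b-3p over miR-152-3p was lower by -0.53 in S49-59 (SE 0.14), by -0.92 in S1-10 (SE 0.27) and by -0.42 in S60-85 (SE 0.16). For miR-148a-3p over miR-148b-3p, S60-85 and S22-48 differed by 0.34 (SE 0.17). In a permutation test of ratios between runs, 82.5%, 80.2% and 33% of all 1326 pairs of the 51 filtered miRNAs and miR-148b-3p were called in the 3 contrasts (S49-59, S1-10 and S60-85), the family's 3 pairs being called 3, 3 and 1 times. Of all pairs, 27.5% and 33.9% shifted more than miR-148a-3p over miR-152-3p in S49-59 and S1-10.

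Other families were set beside it as a description. Of the 52 miRNAs, 42 matched a RefSeq sequence, and 34 pairs among them have the same seed. In S49-59 the shift of miR-148a-3p against miR-152-3p ranked 3 of 34, after miR-29a-3p with miR-29b-3p (2.46) and miR-30c-5p with miR-30e-5p (2.07). It ranked 3 of 34 in S1-10 too, after the same pairs (2.44 and 2.69). The median shift of the 31 pairs outside the family was 0.376 and 0.456. Shifts within a seed family are thus not particular to these members.

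Base composition was compared as a sequence feature. G and C make up 40.9% of miR-148a-3p and of miR-148b-3p and 47.6% of miR-152-3p. Over the 41 of 51 filtered miRNAs with a sequence, the log2 fold change of S49-59 had r = 0.424 and rho = 0.382 with the percentage of G and C. The 7 miRNAs lowered by more than 1, miR-148a-3p among them, had 33.3% to 40.9%, and 7 of the 8 raised by more than 1 had 36.4% to 50%. In S1-10 the r was 0.367 and in S60-85 -0.437, and miRNAs measured in the same libraries are not independent points.

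Variation between hearts was measured as a chi-square of the counts per degree of freedom, which is about 1 where counting alone sets the spread. Over all libraries it was 21.1 for miR-148a-3p, 2.21 for miR-152-3p and 1.24 for miR-148b-3p, against a median of 12.2 and a range of 1.69 to 178 for the 51 filtered miRNAs. MiR-148b-3p was lower than every filtered miRNA and miR-152-3p ranked 48. Rarer miRNAs give a lower value for the same spread, so these values are not free of abundance.

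Within S22-48 and S60-85 miR-148a-3p stood above the other members. It had 13.8 in S22-48 (rank 8 of 51, median of the 51 4.98) and 14.3 in S60-85 (rank 6, median 3.53), where miR-152-3p had 1.40 and 1.87. In S49-59 the members lay close together, with 1.902 for miR-148a-3p, 1.82 for miR-152-3p and 0.384 for miR-148b-3p. In S1-10 the values were 4.90, 1.77 and 1.55. MiR-148b-3p had 0.967 in S22-48 and 1.51 in S60-85.

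**Figure D4:**
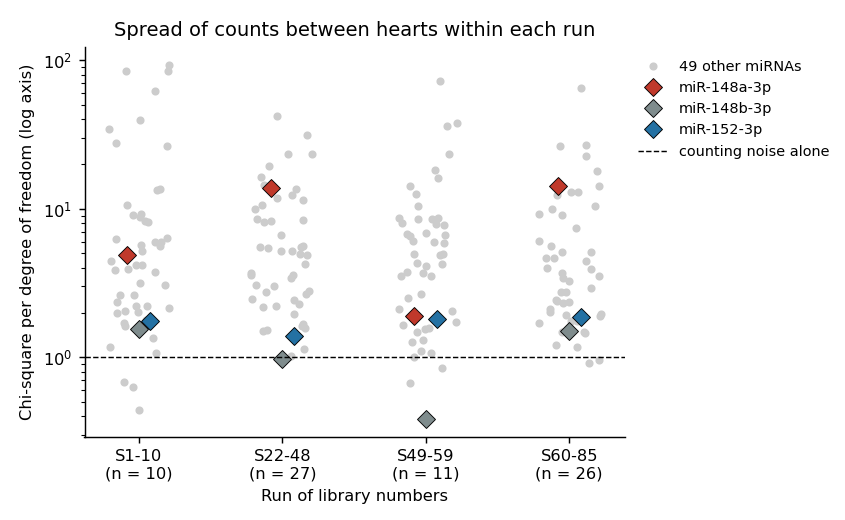
Chi-square per degree of freedom of the counts (vertical log axis) of the 51 filtered miRNAs and miR-148b-3p within each of 4 runs of library number (horizontal axis), where the dashed line marks counting noise alone. MiR-148a-3p stands at 13.8 and 14.3 in S22-48 and S60-85 and at 1.902 in S49-59, while miR-152-3p and miR-148b-3p stay under 2 in each run.

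The coefficient of variation with counting noise removed depends less on abundance. It was computed on TMM-normalized library sizes and the chi-square on plain totals, so the measures also differ in normalization. For miR-148a-3p it was 27.8% in S22-48 (rank 6 of 51), 31.2% in S60-85 (rank 3), 23.3% in S1-10 and 10.1% in S49-59. For miR-152-3p it was 9.24%, 12.2%, 19.7% and 9.07%, and the medians of the 51 were 16.7%, 12.7%, 20.4% and 15.4%. For miR-148b-3p it was 36.7% in S1-10, above both other members, and 13.8% in S60-85, above the 12.2% of miR-152-3p. The value in S1-10 rests on 2 to 14 counts a library and is uncertain. The coefficient of miR-148b-3p was 0% in S22-48 and S49-59, where the spread did not exceed counting noise, so variation between hearts was not detectable there at this depth.

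Single hearts at the ends of the range show the size of this variation. In S22-48, library S30 had 188 counts of miR-148a-3p, 1.76% of its total (95% Wilson interval, 1.53% to 2.03%), and library S36 had 96, 0.433% (0.355% to 0.528%). In normalized level this is 3.80-fold, while miR-152-3p differed by 0.908-fold between the same hearts. In S60-85, library S85 had 189 counts, 1.73% (1.499% to 1.99%), and library S81 had 96, 0.549% (0.450% to 0.669%), 3.31-fold in level against 0.894-fold for miR-152-3p. These hearts were picked as the highest and lowest in miR-148a-3p.

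Sequencing depth moved with miR-148a-3p in the deepest run. In S60-85 its log2 CPM fell with the log2 library total (r = -0.575, permutation p = 0.00196, adjusted over 16 relations 0.0314; rho = -0.568, permutation p = 0.00273, adjusted 0.0437). In S22-48 r was -0.385, which did not pass (permutation test, adjusted p = 0.197). The log2 CPM of miR-152-3p and miR-148b-3p showed no relation past the threshold in any of the 4 runs. The level is the count scaled by the library total, so the quantities compared share a term. The log2 ratio of miR-148a-3p over miR-152-3p is not scaled by that total. Its r with depth was -0.426 in S22-48 and -0.389 in S60-85, against 0.256 in S1-10 and 0.323 in S49-59. After adjustment over the 16 relations it passed the threshold in none of these runs. The members were also selected on their variation between these same hearts, so these p-values are a description too. The part of depth in the variation of miR-148a-3p was not tested.

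The relations between members within runs were mixed in sign. MiR-148a-3p with miR-152-3p had r = 0.601 in S1-10 (rho = 0.261), 0.336 in S22-48 (rho = 0.366), 0.155 in S49-59 (rho = 0.100) and -0.139 in S60-85 (rho = -0.173). The first value rests on library S9, since it was 0.0582 without it. MiR-148a-3p with miR-148b-3p had r between -0.307 and 0.0450, and miR-148b-3p with miR-152-3p between -0.298 and 0.281. With 1 to 28 counts of miR-148b-3p a library, weak relations of this member are not detectable.

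Against miRNAs of other seeds, higher values of r were found for miR-148a-3p. In S60-85 3 of 51 others were called by a permutation test over all pairs, against 1.28% of the 1326 pairs in this run, namely miR-101a-3p, miR-208a-3p and miR-378b, named after their values were seen. The r with miR-101a-3p was 0.782 (n = 26, rho = 0.765). It was 0.764 with the 2 hearts most distant from the run's median left out, and between 0.734 and 0.814 under the other settings, library total and number as covariates included. MiR-101a-3p is an abundant miRNA of many tissues. All points share their library's normalization and depth.

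The r with miR-208a-3p, which is encoded in an intron of the cardiac myosin gene Myh6, was 0.631 (n = 26, rho = 0.595; 0.547 without the 2 farthest), and 0.616 by biweight midcorrelation, where it was not called. With miR-378b the r was -0.665 (n = 26, rho = -0.573; -0.534 without the 2 farthest), and -0.583 with DESeq2 size factors, where it was not called. In S1-10, S22-48 and S49-59 miR-148a-3p had 0 of 51 called in the permutation test, with 9, 9 and 3 under an unadjusted p of 0.05. There 4.83%, 1.81% and 0.98% of all pairs were called.

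**Figure D5:**
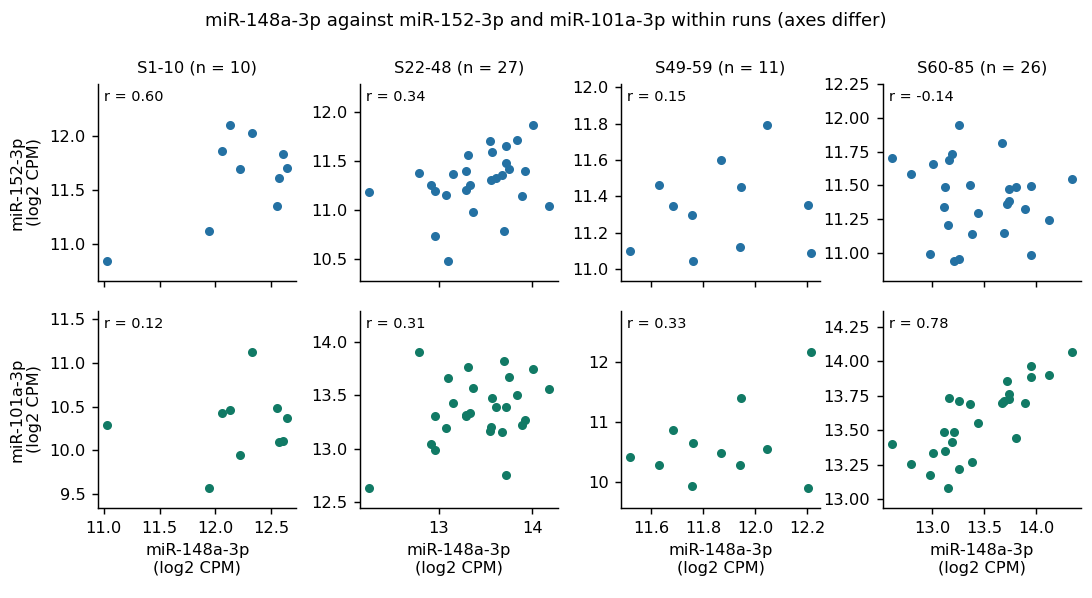
Level of miR-152-3p (upper row) and miR-101a-3p (lower row) against miR-148a-3p (horizontal axes), all in log2 CPM, in 4 runs of library number, with 1 point a heart and axes that differ between panels. The points of miR-101a-3p rise with miR-148a-3p in S60-85 (r = 0.782), and the r of 0.601 with miR-152-3p in S1-10 rests on the lowest point, library S9.

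By the mean of r over the 4 runs, the miRNAs most like miR-148a-3p among 49 were miR-126b-3p (0.525), miR-29b-3p (0.520) and miR-101a-3p (0.516), each positive in 4 of 4 runs. Not all these signs held without the 2 farthest libraries. In S1-10 the r became -0.0259 for miR-126b-3p and -0.852 for miR-29b-3p, and in S49-59 it became -0.157 for miR-101a-3p. In the remaining runs each stayed positive. With library total and number as covariates the order was another, with miR-29b-3p (0.553), miR-208a-3p (0.533), miR-101a-3p (0.532) and miR-30b-5p (0.524) ahead of miR-126b-3p (0.506). Their sequences are shown for comparison with the family, with bases 2 to 8 in capitals, and none has its seed.
mmu-miR-126b-3p: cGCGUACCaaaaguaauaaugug
mmu-miR-29b-3p: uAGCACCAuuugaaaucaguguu
mmu-miR-101a-3p: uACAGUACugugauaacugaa

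MiR-126b-3p lies at chr2:26591363-26591385 on GRCm38.p6, on the strand opposite to the endothelial miR-126a, so its counts are uncertain where strand was not used. MiR-101a-3p lies at chr4:101346957-101346977, and miR-29b-3p, known for repressing collagens, has loci at chr1:195037091-195037113 and chr6:31063025-31063047. All of them were also lower in S49-59 in the edgeR fit, by log2 fold changes of -0.68 for miR-126b-3p, -2.78 for miR-101a-3p and -2.32 for miR-29b-3p. The r of miR-126b-3p ran from 0.463 to 0.702 over the runs, and that of miR-29b-3p from 0.123 to 0.601. Lowest of the 49 was miR-378a-3p, a miRNA from an intron of the PGC-1β gene, with a mean r of -0.473 and a negative r in 4 of 4 runs. Without the 2 farthest libraries its r was 0.318 in S1-10 and 0.520 in S49-59, but -0.434 in S22-48 and -0.385 in S60-85.

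For the other members the nearest miRNAs were less alike. MiR-148b-3p was nearest to miR-29a-3p (mean r 0.330), miR-23b-3p (0.325) and miR-26b-5p (0.251). MiR-152-3p was nearest to miR-126b-3p (0.329), let-7c-5p (0.229) and miR-499-5p (0.211). In S1-10 (n = 10), 2 of 51 relations of miR-152-3p and 1 of 51 of miR-148b-3p were called, 3.92% and 1.96%, both under the 4.83% of all pairs in that run. They were miR-1b-5p with miR-152-3p (r = 0.937, rho = 0.915; 0.766 without the 2 farthest), miR-1a-3p with miR-152-3p (r = 0.888, rho = 0.733; 0.501 without the 2 farthest) and let-7f-5p with miR-148b-3p (r = 0.851, rho = 0.879; 0.800 without the 2 farthest). MiR-1b-5p lies opposite a locus of miR-1a-3p, so the relations of miR-1b-5p and miR-1a-3p may not be separate. Without library S9 these 3 were not called. In the other 3 runs neither miR-152-3p nor miR-148b-3p had a call in the permutation test, with 1 to 3 of 51 under an unadjusted p of 0.05.

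A list of 18 miRNAs linked to lipid metabolism, chosen with earlier results known and without the family, was read in the same fits. All 18 are listed, 17 had a count and 7 passed the filter. In S49-59, 4 of the 7 were called higher and 3 lower, where 88.2% of all 51 were called, with a median log2 fold change of 0.27 against 0.15 over all 51. Higher were miR-103-3p (0.49), miR-30c-5p (0.34), miR-378a-3p (0.27) and miR-26a-5p (0.27), and lower were miR-21a-5p (-0.91), miR-27a-3p (-0.54) and miR-27b-3p (-0.32), all smaller in size than miR-148a-3p. In S1-10, 2 were called higher and 2 lower, so 4 of 7 against 88.2% of the 51 (median -0.11 against 0.21 over the 51). In S60-85, 0 were called higher and 2 lower, against 17.6% of the 51 (median 0.0083 against 0.0227). Of the rest, the liver miRNA miR-122-5p had 399 counts and miR-33-5p, from the SREBP-2 gene, 6 counts in 4 libraries, so miR-148a-3p held more counts than any list member but miR-30c-5p (18918) and miR-26a-5p (14447).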

How the data were processed

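Total RNA from heart was made into small RNA libraries with a QIAseq kit and sequenced, 1 library per mouse. The authors mapped the reads and deposited 1 count for each mature miRNA and library, a whole number that is not normalized. Their processing notes name HISAT2 2.0.6, HTSeq 0.13.5 and mm10. Adapter trimming, the miRNA annotation, the strand setting and the use of molecular identifiers are not given in the sources used here, so intervals cover counting error only. All 85 columns matched a label.

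The members, the run borders, the lists and the tests were chosen with earlier results of these data known. Each library is a separate mouse, and p-values measure the spread between these hearts.

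EdgeR 4.0.16 (R 4.3.3) with filterByExpr (10 counts in at least 63 libraries, a minimum total of 15) kept 51 of 548 miRNAs, which held 95.7% of the counts. TMM normalization and a prior count of 2 gave log2 CPM. Runs were a term in glmQLFit over all 85 libraries, tested with glmQLFTest at an adjusted p of 0.05. MiR-148b-3p failed the filter and was added to the ratios and correlations as a 52nd row, with folds from the fit without the filter. Differences of log2 ratios, r and rho used two-sided permutation tests with 100000 resamples (numpy 2.4.6, scipy 1.17.1, statsmodels 0.14.6, pandas 2.3.3, Python 3.11.15). Apart from the relations to depth, these p-values serve only to count calls. Adjustment of r was over all 1326 pairs of a run, and over 12 for pairs of members. Plots used matplotlib 3.10.9. Mean r over runs is the back-transformed Fisher z, weighted by n minus 3. The scripts were tested on simulated data.

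The named miRNAs are the members and their 5p arms, the 3 most alike by mean r, the filtered members of the lists, and the 3 with the most counts. The others are those singled out by a call, a marker list or a seed pair, after their values were seen. Alternatives were DESeq2 1.42.0 size factors and Wald test, no TMM, all miRNAs unfiltered, the 84 libraries with at least 5000 counts, log2 total as a covariate, a prior count of 0.5, 1 added to both counts of a ratio, pooled ratios, mean shares, both arms summed, shares of the 3 members or of the effective library size, biweight midcorrelation, partial correlation given log2 total and library number, and leaving out the 2 farthest libraries. Leaving out library S9 was added after seeing the data.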

Additional observations from a re-analysis of the deposited data

Results flagged for a closer look

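Within S1-10, library S9 lay apart in the log2 CPM of miR-148a-3p, at 11.03, where the next lowest library of the run, S10, had 11.94. Its gap to the next library divided by the range of the run was 0.563, more than Dixon's test allows for 10 samples at the 95% level. It rests on 23 counts among 10989, a share of 0.209% (95% Wilson interval, 0.1395% to 0.314%). Library S9 also had the lowest miR-152-3p of the run, 10.84, which was not far enough from the others to be singled out. Of the 6 values of members and their ratios examined in this way in S1-10, this was the only such case. Chance gives about 1 in 20 for each value examined, and so more than that over the 6.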

How the results depend on the processing

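Of the results compared under other settings, 216 values stayed on the same side in sign and call or within their spread, 14 moved further, 8 turned in direction, 11 lost their call and 1 gained it. Where a value below changed, the cause was not tested. With no filter, 93, 82 and 0 of 548 miRNAs were called in the S49-59, S1-10 and S60-85 contrasts, against 45, 45 and 9 of 51. CPM without TMM moved the median log2 fold change of all 51 from 0.15 to 0.48 in S49-59 and from 0.21 to 0.40 in S1-10, and the higher and lower calls from 24 and 21 to 29 and 13 in S49-59. The fold change of miR-152-3p became 0.30 in S49-59 with CPM without TMM, where it was called, and 0.12 in S1-10 with no filter, where it was not, and that of miR-148a-3p became -0.0646 in S60-85 with CPM without TMM. Without library S9 the ratio of miR-148a-3p over miR-148b-3p in S1-10 was -0.49 and was not called, and with 1 added to both counts its value in S60-85, 0.34, was called in the permutation test.

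As a share of the 3 members, the chi-square per degree of freedom was 2.34 for miR-148a-3p, 1.97 for miR-148b-3p and 5.84 for miR-152-3p. Each member is part of that total, so counting alone gives less than 1 here, and least for miR-148a-3p, which holds 72.5% of it. The values therefore do not order the members by variation. The r of miR-148a-3p with miR-148b-3p became -0.0683 (DESeq2 size factors) and -0.133 (CPM without TMM) in S1-10, and -0.0137 in S22-48 without the 2 farthest libraries. That of miR-148b-3p with miR-152-3p became -0.0383 (biweight midcorrelation) and -0.195 (without the 2 farthest) in S22-48 and -0.0162 (without the 2 farthest) in S49-59. Relations called over the 4 runs, 3 for miR-148a-3p, were 11 with CPM without TMM and 8 as partial correlations. For miR-148b-3p, 1 became 0 with DESeq2 size factors, 3 with CPM without TMM and 0 with biweight midcorrelation. For miR-152-3p, 2 became 5, 9 and 1 under the same settings. Over all pairs, CPM without TMM called 9.35%, 9.58%, 1.28% and 3.77% in S1-10, S22-48, S49-59 and S60-85, against 4.83%, 1.81%, 0.98% and 1.28%. In the same order, partial correlations called 8.97%, 1.58%, 0.83% and 2.26%. DESeq2 size factors called 7.69%, 1.06%, 0.0754% and 0.98%, and biweight midcorrelation 2.41%, 1.06%, 0.226% and 0.98%. Nothing is read from the members' counts of calls beside these.

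No paired analysis was possible because all libraries belong to 1 group. Depth limits miR-148b-3p most, with a median of 10 counts a library.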
